A study of Selaginella nipponica with 6 samples.

Results

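A set of 136 unigenes of the spikemoss *Selaginella nipponica* was abundant in the erect shoots and nearly silent in the prostrate shoots, out of 206768 unigenes in the whole data set. Levels are CPM, the rounded count of a unigene divided by the total of its library and multiplied by 1000000. The set was chosen by measured values: a unigene belonged to it if its mean over the erect libraries was at least 20 CPM, its mean over the prostrate libraries was above 0 and under 5% of the erect mean, and its lowest erect library lay above its highest prostrate library. Unigenes with 0 counts in all prostrate libraries were left out. As the difference between the types of shoots chose these unigenes, their levels in both are a description, and no call or test of that difference is used in support of anything said of them.

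Prostrate shoots creep along the ground early in growth, and the labels state that emerging roots were harvested with them. Erect shoots appear later and were harvested with their sporangia. All plants grew wild and untreated in a single population, and 3 subsamples of each type of shoot gave the 3 prostrate and 3 erect libraries. The p-values below therefore set the difference between the types of shoots only against the spread among subsamples from 1 population. Roots, sporangia and age differ together between the types of shoots and cannot be told apart. In such bulk tissue, fewer cells of a type and less RNA per cell cannot be told apart either.

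*Selaginella* is heterosporous, which means that its sporangia make large megaspores, from which female gametophytes grow, and small microspores, from which male gametophytes grow. In land plants the cells lining a sporangium feed the developing spores and supply material for the spore wall, whose outer layer is built of the resistant polymer sporopollenin, and spores store lipid and protein for germination. In flowering plants, many transcripts of the cells that line the pollen sac are known to be rare in leaves and roots. None of the 136 unigenes was given a gene name or role here, because no annotation of the unigenes was used. None of the 18 unigenes that the text of the paper names by identifier was among them. The paper names further homologs without identifiers, and these could not be looked up. Without an annotation the harvested tissues were not checked against marker genes. Each is therefore described by its identifier, where the part up to _g names the Trinity component, a group of transcripts that the assembler put together by sequence overlap.

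Library totals lay between 15679145 and 20243961 counts, so that 1 CPM stood for 15.7 counts in the smallest library. Erect means of at least 20 CPM were reached by 7879 unigenes, and the 136 were part of these. Under the same rule with the types of shoots exchanged, 11 unigenes qualified as abundant in the prostrate shoots and nearly silent in the erect shoots. In the quasi-likelihood test of edgeR, adjusted by Benjamini-Hochberg, 136 of the 136 were called higher in the erect shoots, against 7.94% of the 23275 unigenes tested. Every erect library lay above every prostrate library in 23.2% of the tested unigenes, and in the 136 by the rule. These counts follow from the choice of the unigenes, and nothing was read from them.

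The 136 unigenes together took 5.10, 5.65 and 4.53% of all counts in erect replicates 1, 2 and 3. In prostrate replicates 1, 2 and 3 they took 0.0489, 0.0512 and 0.0487%. The means were 5.09% ± 0.557 (SD, n = 3) in the erect and 0.0496% ± 0.00138 (SD, n = 3) in the prostrate shoots. The share was thus carried mostly by few unigenes, as the 3 most abundant held 31.2% of it in the erect libraries and the 10 most abundant held 54.6%. Those 3 were among the 10 unigenes with the highest CPM of all in the erect shoots, and 16 of the set were among the highest 100. The erect level had a median of 121 CPM over the set, with quartiles of 54.8 and 252 CPM. CPM also reflects transcript length, which was not used here, so these are shares of counts and not of molecules.

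DN102912_c0_g5 had the highest CPM of any unigene in the erect shoots, with 125660, 112995 and 145451 counts in erect replicates 1, 2 and 3. It had 15, 3 and 18 counts in prostrate replicates 1, 2 and 3. The erect libraries lay close together and all prostrate libraries lay near 0, at 6809 ± 982 CPM (SD, n = 3) against 0.709 ± 0.451 CPM (SD, n = 3), which made the prostrate level 0.0104% of the erect level. DN100944_c0_g3 was the fifth of all unigenes in the erect shoots and had even less in the prostrate shoots. Its counts were 81334, 62196 and 88035 in the erect libraries and 1, 2 and 4 in the prostrate libraries, or 4093 ± 679 and 0.139 ± 0.0839 CPM. The prostrate level was 0.00339% of the erect level.

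DN105641_c1_g1, the third of all unigenes in the erect shoots, had a clear residual level in the prostrate shoots. It had 124038, 98298 and 61457 counts in erect replicates 1, 2 and 3 and 214, 297 and 274 in prostrate replicates 1, 2 and 3. Its mean was 4981 ± 1447 CPM in the erect and 15.8 ± 2.98 CPM in the prostrate shoots, or 0.318%. Erect replicate 3 was the lowest of its erect libraries, whereas the same library was the highest for both unigenes above.

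The other 7 of the 10 most abundant had prostrate levels between 0.688 and 2.89% of the erect level. The largest prostrate level of the whole set belonged to DN99201_c0_g1, with 83.4, 17.0 and 43.6 CPM in prostrate replicates 1, 2 and 3 and 2515, 1476 and 990 CPM in erect replicates 1, 2 and 3. Its prostrate replicate 1 was nearly 5 times as high as replicate 2, and both groups still lay far apart. DN101837_c1_g1 had 47005, 60772 and 18547 counts in the erect libraries and 578, 939 and 616 counts in the prostrate libraries, or 2237 ± 1184 and 43.3 ± 14.3 CPM. DN102762_c0_g1 had 1385, 1744 and 2710 CPM in the erect libraries and 35.8, 41.8 and 51.5 CPM in the prostrate libraries. These 3 unigenes were thus not absent from the prostrate shoots, where their mean levels would have met the same minimum of 20 CPM. DN103017_c0_g1, with 1777 ± 263 CPM in the erect and 21.3 ± 11.2 CPM in the prostrate shoots, met it too.

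**Figure D1:**
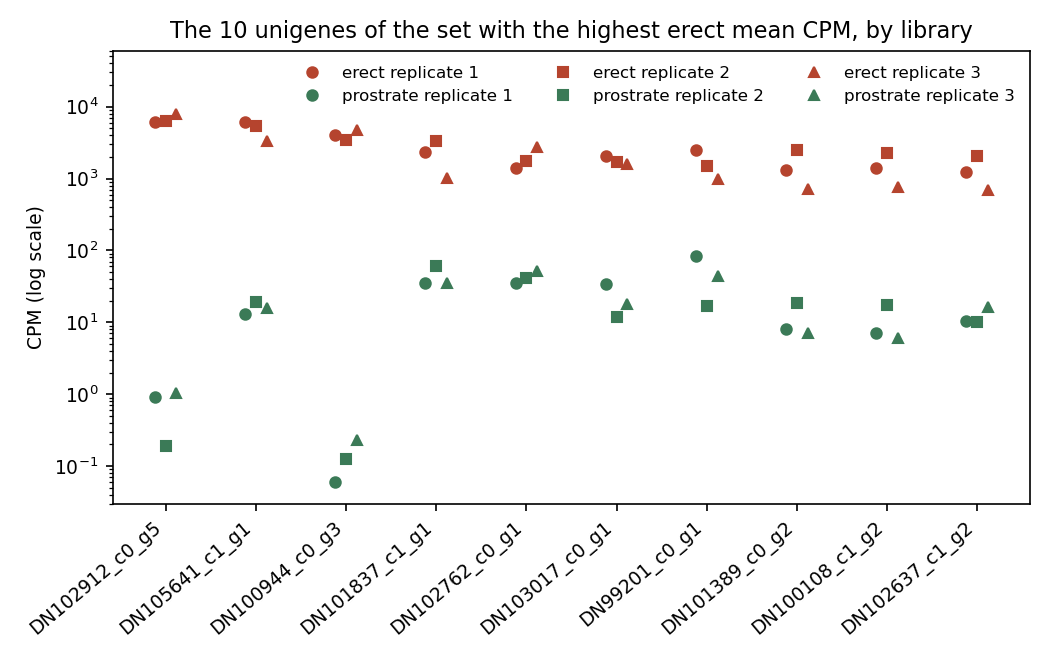
CPM on a log scale in each of the 6 libraries for the 10 unigenes of the set with the highest erect mean, with erect libraries in red, prostrate libraries in green and the replicate given by the shape of the point. The erect points lie between 691 and 7942 CPM, and the prostrate points reach from 0.0607 CPM in DN100944_c0_g3 to 83.4 CPM in DN99201_c0_g1.

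The residual prostrate level differed widely among the 136 unigenes. As a percentage of the erect level it had a median of 1.03%, quartiles of 0.202 and 2.33%, and a range from 0.00268 to 4.95%. It was under 0.01% in 3 unigenes, from 0.01 to under 0.1% in 23, from 0.1 to under 1% in 42, from 1 to under 2.5% in 37 and from 2.5 to under 5% in 31. The set therefore had no common percentage. Across the 136 unigenes, the erect and prostrate levels had a Spearman's rho of 0.419, given as a description, since unigenes are not independent replicates and share the same 6 libraries and the limits of the rule.

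All 3 unigenes under 0.01% came from 2 components. DN101829_c0_g2 had 11132, 12417 and 16164 counts in erect replicates 1, 2 and 3 and 1 count in the prostrate libraries together, in replicate 3. The ratio of its counts per summed total was 0.00286%, and its exact 95% Clopper-Pearson interval, for counting error alone, ran from 7.25e-05 to 0.016%. DN100944_c0_g2, of the same component as DN100944_c0_g3, had 4301, 3155 and 7217 counts in the erect libraries and 1 count in prostrate replicate 1, a ratio of 0.00775% (interval from 0.000196 to 0.0432%). Next in order were DN102912_c0_g5, described above, and DN95795_c0_g1, with 174, 194 and 155 CPM in the erect libraries and 1 prostrate count (ratio 0.0115%, interval from 0.000292 to 0.0643%). The intervals of DN100944_c0_g3 (0.00138 to 0.00708%) and DN102912_c0_g5 (0.00746 to 0.0148%) did not overlap each other, but both overlapped the intervals of the 3 unigenes with 1 count, whose place in the order was not resolved.

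Most of the set was seen in every prostrate library. Counts were found in all 3 prostrate libraries for 106 unigenes, in 2 for 13 and in 1 for 17. The prostrate counts summed over the 3 libraries had a median of 47.5 and quartiles of 12.8 and 112, and 20 unigenes had at most 3. The median of the prostrate percentage was 0.844, 1.09 and 1.05% in prostrate replicates 1, 2 and 3, so these medians did not rest on a single library. The 17 unigenes with counts in 1 prostrate library did owe their residual level to that library. It was replicate 3 for DN101829_c0_g2, DN94679_c0_g1 and DN95795_c0_g1, replicate 2 for DN97298_c0_g1 and replicate 1 for DN100944_c0_g2. Without prostrate replicate 3 the rule kept 121 of the 136, against 134 without replicate 1 and 131 without replicate 2. Prostrate replicate 1 was the highest of the 3 for 24 unigenes, replicate 2 for 50 and replicate 3 for 62. The same libraries were highest in 19.9, 38.2 and 41.9% of the other abundant unigenes, and the shares in the set were close to these.

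**Figure D2:**
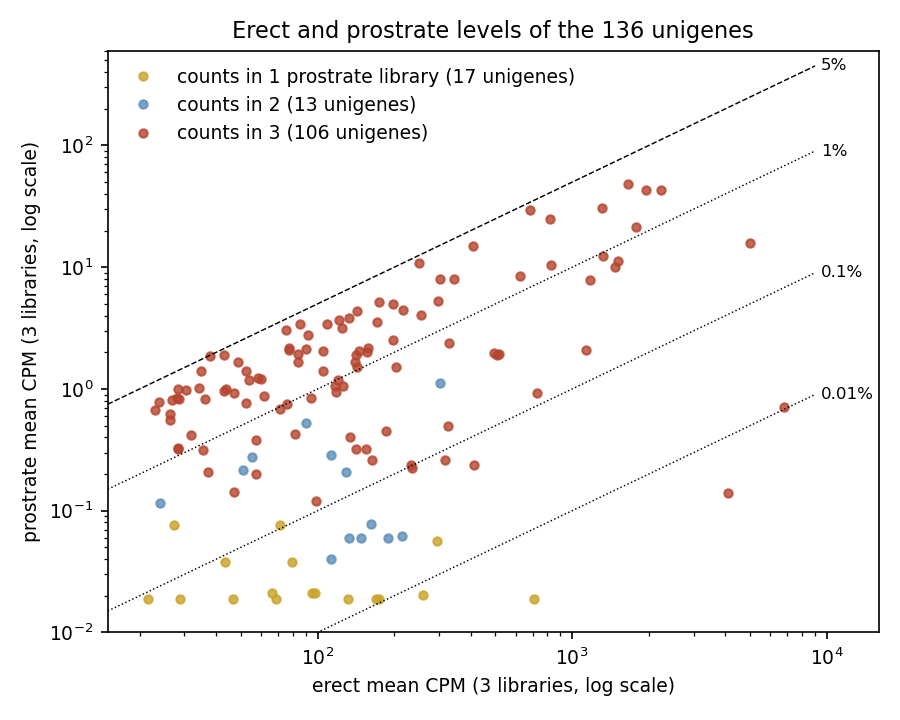
Mean CPM in the erect shoots (horizontal, log scale) against mean CPM in the prostrate shoots (vertical, log scale) for the 136 unigenes, coloured by the number of prostrate libraries with counts, with lines where the prostrate level is 5, 1, 0.1 and 0.01% of the erect level. All points lie under the 5% line by the rule, 106 have counts in each prostrate library, and the 17 with counts in a single prostrate library lie at the bottom.

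No gap in the values marked the threshold of 5%. Just inside it, DN94629_c0_g1 had 34.9, 57.1 and 21.8 CPM in erect replicates 1, 2 and 3 and 1.46, 1.28 and 2.90 CPM in prostrate replicates 1, 2 and 3, or 4.95%. DN106259_c3_g2 followed with 4.42%, DN101135_c0_g1 with 4.29%, DN103917_c0_g1 with 4.27% and DN105008_c2_g1 with 4.04%. Of these, DN103917_c0_g1 was the most abundant, at 686 ± 121 CPM in the erect and 29.2 ± 1.94 CPM in the prostrate shoots. Just outside were DN96304_c0_g1 with 5.03%, DN104922_c2_g3 with 5.32%, DN103429_c0_g2 with 5.40%, DN100353_c0_g2 with 5.43% and DN96338_c0_g1 with 5.63%. The counting interval of the percentage lay wholly under 5% for 133 of the 136. It reached past 5% for DN94629_c0_g1, DN106259_c3_g2 and DN96317_c0_g1, which was named after its values were seen.

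Percentages this low were rare among abundant unigenes. Of the 7879 with an erect mean of at least 20 CPM, 6750 had a prostrate level from 50 to under 200% of the erect level and 431 from 20 to under 50%. From 10 to under 20% there were 90, and from 5 to under 10% there were 53. A further 23 unigenes had 0 counts in all prostrate libraries, where a count of 0 allows up to 0.0603 CPM over the 3 libraries. Their erect level had a median of 50.1 CPM and reached 548 CPM, below the 13 unigenes of the set with at least 1000 CPM.

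**Figure D3:**
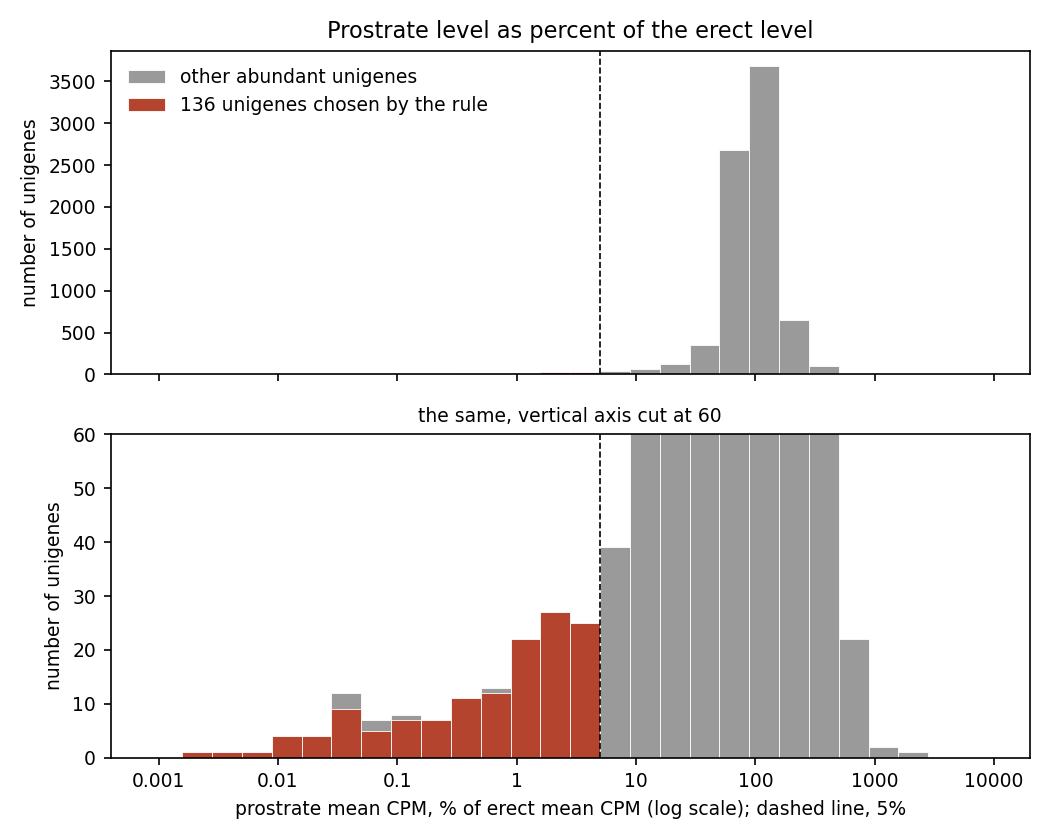
Number of abundant unigenes (erect mean CPM at least 20) by their prostrate mean as a percentage of the erect mean, on a log scale, with the 136 unigenes of the set in red, the others in grey and the 5% threshold dashed; the lower panel repeats the upper with the vertical axis cut at 60. Most unigenes lie near 100%, the red bars form a low tail over more than 3 orders of magnitude, and the 23 unigenes with 0 prostrate counts are not drawn.

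The condition that the groups do not overlap kept out 7 abundant unigenes under 5%, and between 99.0 and 99.9% of their erect CPM was in erect replicate 1. For example, DN100015_c2_g3 had 5335, 0 and 4 counts in erect replicates 1, 2 and 3 and 2 prostrate counts, and DN98987_c0_g1 had 5306, 0 and 11 counts and 3 prostrate counts. Both were named after their values were seen. All 7 had 0 counts in erect replicate 2 and are not part of the set.

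The rule was repeated without each library, and the library left out was then examined. Without prostrate replicate 1, 2 or 3 it chose 136, 132 or 129 unigenes, and the prostrate library left out was under 5% of the erect mean in 132, 127 and 119 of them. Without erect replicate 1, 2 or 3 it chose 136, 145 or 145. The prostrate mean was under 5% of the erect library left out in 130, 135 and 127 of these, and the library left out lay above every prostrate library in 136, 137 and 144. In erect replicate 3 the unigenes chosen without it had a median of 0.747 times the mean of the other erect libraries, with quartiles of 0.458 and 1.22. The corresponding medians were 0.927 for erect replicate 1 and 1.06 for erect replicate 2.

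The erect libraries differed among themselves more in the 136 unigenes than in other abundant unigenes. The coefficient of variation over the 3 erect libraries is not independent of the rule, which used the erect mean and the lowest erect library. It had a median of 0.319 in the set, with quartiles of 0.188 and 0.470. In the other 7743 abundant unigenes the median was 0.105, with quartiles of 0.0624 and 0.172. It was above 0.3 in 70 of the 136 (51.5%) and in 9.05% of the others. Counting noise alone would give the set a median of 0.0209, and 133 of the 136 were above 2 times their own counting noise. Without erect replicate 3 the medians were 0.170 in the set and 0.0774 in the others. The comparison is a description, because 3 libraries per group give no test of it.

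The gap was also present at each level of abundance. Between 20 and 50 CPM the median coefficient was 0.287 in 30 unigenes of the set and 0.117 in 3154 others. Between 50 and 200 CPM it was 0.343 in 66 and 0.0975 in 3621, and from 200 CPM it was 0.311 in 40 and 0.0936 in 968. The spread was also higher in each class of unigenes with a large difference between the types of shoots. The median was 0.363 in the 23 without prostrate counts, 0.236 in 143 unigenes with a prostrate level from 5 to under 20%, 0.155 in 431 from 20 to under 50% and 0.0977 in the 6750 from 50 to under 200%. It was 0.255 in the 389 unigenes with 200% or more, which were higher in the prostrate shoots. A large spread among the erect libraries was thus not particular to the set.

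Erect replicate 3 stood apart most often. It was the lowest erect library for 75 of the 136 unigenes (55.1%), against 35.2% of the other abundant unigenes. Erect replicate 1 was the lowest for 45 (33.1%, against 43.9%) and erect replicate 2 for 16 (11.8%, against 20.9%). Erect replicate 3 was at least 2-fold below erect replicate 1 in 30 (22.1%) and at least 2-fold above it in 10 (7.35%), where the other abundant unigenes gave 2.36 and 3.33%. The 75 unigenes with erect replicate 3 lowest took 2.99, 3.31 and 1.60% of the counts of erect replicates 1, 2 and 3. The 47 with erect replicate 3 highest took 1.80, 1.90 and 2.59%. The directions of these sums follow from sorting the unigenes by erect replicate 3, so the sums only describe the size of the shares. The order from high to low was erect replicate 2, 1, 3 for 41 unigenes (30.1%), against 12.6% of the other abundant unigenes. It was 3, 2, 1 for 35 (25.7%, against 30.2%) and 1, 2, 3 for 34 (25.0%, against 22.6%), where the set was close to the others. The order 1, 3, 2 was found for 4 (2.94%, against 10.1%).

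Several of the most abundant unigenes had nearly the same profile over the erect libraries. DN101389_c0_g2 had 29.0, 55.2 and 15.7% of its erect CPM in erect replicates 1, 2 and 3. DN100108_c1_g2 had 31.4, 51.3 and 17.3%, DN102637_c1_g2 had 31.3, 51.3 and 17.4%, and DN101837_c1_g1 had 34.6, 50.3 and 15.1%. In each of them erect replicate 2 was the highest and erect replicate 3 the lowest, and they come from different components. DN99843_c0_g1, named after its values were seen, had 31.6, 51.8 and 16.6%. In the prostrate shoots DN101389_c0_g2 had 23.6, 55.2 and 21.2% of its CPM in replicates 1, 2 and 3 and DN100108_c1_g2 had 23.2, 56.7 and 20.1%, whereas DN102637_c1_g2 had 28.2, 27.8 and 44.0%. The profiles of DN102912_c0_g5, with 30.4, 30.7 and 38.9% in the erect libraries, and of DN100944_c0_g3, with 32.7, 28.1 and 39.1%, were flatter and highest in erect replicate 3.

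The unigenes with the smallest and the largest spread show the range. DN101102_c0_g2 had 399, 420 and 412 CPM in erect replicates 1, 2 and 3, a coefficient of variation of 0.0259, and 7, 1 and 4 counts in prostrate replicates 1, 2 and 3. DN97557_c0_g1 had 22.1, 21.6 and 20.9 CPM (0.0297), and DN104488_c0_g1 had 48.8, 50.6 and 46.7 CPM (0.0392). At the other end, DN102033_c0_g1 had 200.1, 23.7 and 8.85 CPM (1.37), and its erect replicate 3 was closer to the highest prostrate library, at 3.19 CPM, than to erect replicate 1. DN100581_c0_g1 had 58.5, 10.5 and 12.9 CPM (0.990), and DN104169_c1_g4 had 118, 20.2 and 27.5 CPM (0.986). In these 3 unigenes erect replicate 1 was the high library.

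Such a lead of erect replicate 1 by at least 2-fold over both other erect libraries was found in 5 unigenes of the set. The remaining ones, named after their values were seen, were DN104169_c1_g5, with 600.2, 172 and 139 CPM, and DN99047_c0_g1, with 144, 57.4 and 49.7 CPM. Erect replicate 2 was at least 2-fold below both others in DN104115_c0_g3 alone, with 135, 14.6 and 190 CPM. Erect replicate 3 was at least 2-fold below both others in 20 unigenes, or 14.7% of the set, against 0.684% of the other abundant unigenes.

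**Figure D4:**
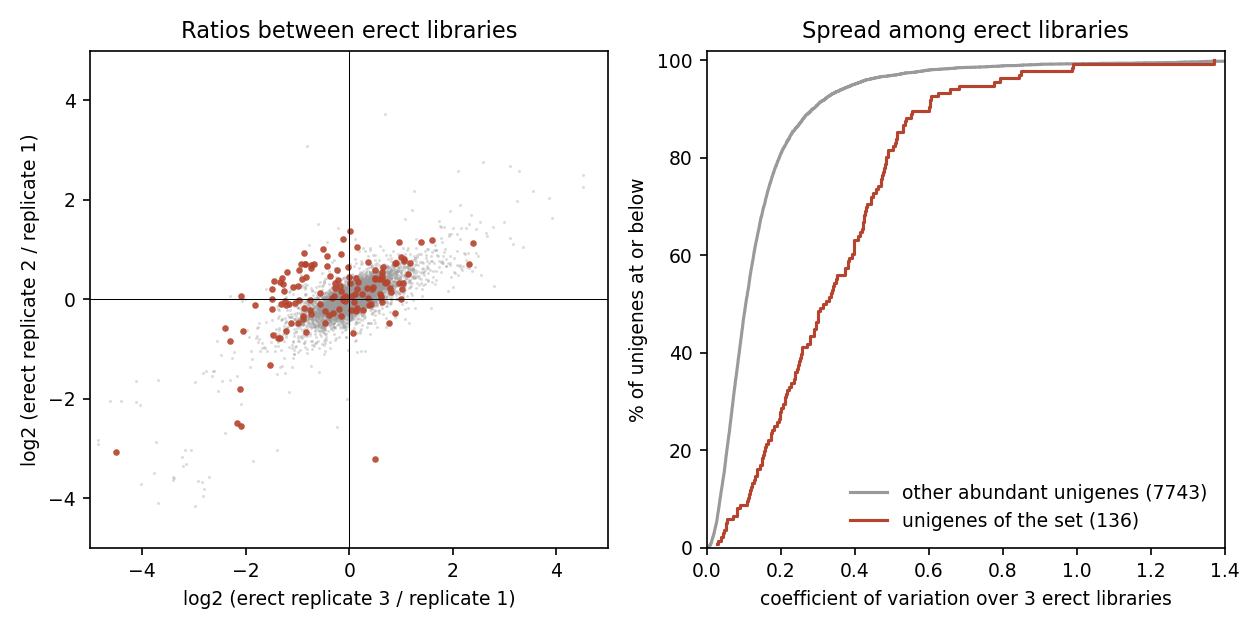
Left, log2 ratios of erect replicate 3 (horizontal) and erect replicate 2 (vertical) to erect replicate 1, for the 136 unigenes in red and for the other abundant unigenes with counts in all erect libraries in grey; right, the percentage of unigenes at or below each coefficient of variation over the 3 erect libraries. The grey cloud is centred near 0, the red points are more widely scattered on the left than the bulk of the grey points, a few grey points lie outside the panel, and the red curve lies to the right of the grey curve, with medians of 0.319 and 0.105.

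The 136 unigenes belonged to 124 components, of which 12 held 2 unigenes of the set each. In 10 of these 12 the same erect library was the lowest for both unigenes, and in 7 the same library was the highest. The log2 ratio of erect replicate 3 to erect replicate 1 differed within these pairs by a median of 0.25 and at most 0.80, whereas over the whole set it ran from -4.50 to 2.39, with quartiles of -0.94 and 0.49. DN100002_c0_g2 had 59.9, 55.4 and 25.6 CPM in erect replicates 1, 2 and 3, and DN100002_c0_g3 had 133, 182 and 74.7 CPM. DN100108_c1_g1 had 138, 184 and 56.1 CPM, a profile like that of DN100108_c1_g2. DN100189_c0_g1 had 173, 175 and 264 CPM and DN100189_c0_g2 had 302, 284 and 404 CPM, with prostrate levels of 0.742 and 0.725%. Such pairs may share sequence, which was not checked, so reads may have been divided between them by the counting. They are not treated as independent. At least 1 deposited value was not a whole number, which can arise when a counting program divides reads between transcripts, in 123 of the 136 and in 96.0% of the other abundant unigenes.

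Other unigenes of the same components that did not meet the rule are called companions here. They are not independent of the rule, as 47 of them reached 20 CPM in the erect shoots and were left out by its other conditions. Of these 47, 5 had 0 prostrate counts, and DN100353_c0_g2 is an example of those left out by the 5% limit. The components held 159 such companions, and 109 of them, from 71 components, passed the filter on low counts. In the edgeR test, adjusted over all 23275 unigenes, 37 of the 109 were called higher in the erect shoots (33.9%), against the 7.94% of all tested unigenes given above. Companions of the other abundant unigenes were those sharing a component with at least 1 other abundant unigene and with none of the set. They could themselves be among the abundant unigenes, whereas no unigene of the set counted as a companion, so the groups were not built alike. Of 5518 such companions, 317 were called higher (5.74%). In the other direction 3 of the 109 were called lower in the erect shoots (2.75%), against 5.31% of all tested unigenes and 5.09% of the companions of other abundant unigenes. The filter asks for 0.562 CPM in at least 3 libraries, and all 11 companions with 0 prostrate counts passed it through the erect libraries alone, so they could be called only in that direction. Where all prostrate libraries reached 0.562 CPM, 14 of 78 companions were called higher (17.9%), against 4.47% of all tested unigenes and 3.88% of the companions of other abundant unigenes under the same limit. This last count was added after the values were seen. Companions may share sequence with unigenes of the set, which was not checked, and the part of shared reads in these calls was not tested. Among the companions with whole values in every library, 11 of 22 were called higher. The share over all tested unigenes with whole values was not computed, so nothing is read from that count. The median log2 fold change of the companions was 0.63, and that of all tested unigenes was -0.01. The remaining 69 were not called.

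The companions covered a wide range of the prostrate percentage. In 66 of the 109 the prostrate level was at least 50% of the erect level, and in 20 it was under 5%, including 11 with 0 prostrate counts. Of these 11, 5 had an erect mean of at least 20 CPM. DN102542_c1_g2 had 4544, 4193 and 3472 counts in erect replicates 1, 2 and 3 and 0 in each prostrate library. Against a floor of 3 counts, taken over all prostrate libraries together, it was at least 3579-fold higher in the erect shoots. Its 0 prostrate counts kept it out of the set, and it passed the filter through the erect libraries alone. This fold is therefore a description, and no test of it is given. Its partner in the set, DN102542_c1_g1, had 17308, 25854 and 20135 counts in the erect libraries and 19, 41 and 44 counts in the prostrate libraries. DN101829_c0_g1, DN98371_c0_g2, DN104035_c0_g3 and DN104115_c0_g1, named after their values were seen, were at least 1744-, 1193-, 1005- and 795-fold higher on the same floor. These folds are descriptions for the same reason. DN104115_c0_g1 had 1419, 212 and 1082 counts in the erect libraries, and so shared the low erect replicate 2 of DN104115_c0_g3.

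Other companions had high levels in the prostrate shoots. DN100944_c0_g4 shares its component with DN100944_c0_g3 and DN100944_c0_g2, but had 420, 371 and 798 CPM in prostrate replicates 1, 2 and 3 and 254, 306 and 314 CPM in erect replicates 1, 2 and 3. All its prostrate libraries lay above all its erect libraries, and the difference did not pass the test (log2 fold change of -0.97 ± 0.299 SE, edgeR adjusted p = 0.07). DN106065_c3_g1 had 394, 645 and 173 CPM in prostrate replicates 1, 2 and 3 and 302, 448 and 484 CPM in erect replicates 1, 2 and 3 (log2 fold change of -0.10 ± 0.448 SE, edgeR adjusted p = 0.917). Its groups overlapped, whereas DN106065_c3_g2 of the set had prostrate and erect levels of 0.319 ± 0.0727 and 28.4 ± 7.04 CPM.

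The 3 companions that were lower in the erect shoots came from 2 components. DN99762_c1_g1 had 366, 338 and 288 CPM in prostrate replicates 1, 2 and 3 and 85.6, 112 and 191 CPM in erect replicates 1, 2 and 3 (log2 fold change of -1.46 ± 0.310 SE, edgeR adjusted p = 0.0188). Its component also held DN99762_c1_g3, which fell likewise (log2 fold change of -1.55, edgeR adjusted p = 0.0353), and DN99762_c1_g2 of the set, with prostrate and erect levels of 4.95 ± 2.30 and 197 ± 10.5 CPM. Summed over the component, the prostrate and erect levels were 383 and 345 CPM, so that the difference in DN99762_c1_g2 was not visible in the sum. The third, DN105093_c2_g2, had 39.3, 32.3 and 63.0 CPM in prostrate replicates and 12.7, 14.8 and 23.3 CPM in erect replicates 1, 2 and 3 (log2 fold change of -1.51, edgeR adjusted p = 0.0204). Without erect replicate 1 or without erect replicate 2, edgeR called 0 of 113 or 0 of 109 companions lower. The shares of all unigenes tested there were 2.54 and 2.77%. At an unadjusted p under 0.05 in edgeR, 8 or 7 companions were lower, and the share over all unigenes was not computed.

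The most abundant companion in the erect shoots, DN105641_c1_g2, shares its component with DN105641_c1_g1 and was called higher in the erect shoots. It had 113, 191 and 158 CPM in prostrate replicates 1, 2 and 3 and 1127, 868 and 676 CPM in erect replicates 1, 2 and 3 (log2 fold change of 2.41 ± 0.288 SE, edgeR adjusted p = 0.00188). Its prostrate level was 17.3% of the erect level, and erect replicate 3 was the lowest erect library for both. When counts were summed over each component, 84 of the 124 components met the rule. Of the 124, 45 held no other unigene, so that the sum could not change their outcome. The other 79 held another unigene, and in 40 of them the summed prostrate level was 5% or more of the erect level. In 12 it was at least 50%.

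Of the 18 unigenes that the text of the paper names, DN97881_c0_g2, which it places close to *AGL67*, a MADS-box gene of Arabidopsis, missed the rule only by its erect level. Its counts were 363, 333 and 259 in erect replicates 1, 2 and 3 and 2, 0 and 0 in prostrate replicates 1, 2 and 3. The erect libraries lay far above the prostrate libraries, at 16.9 ± 2.37 and 0.0405 ± 0.0701 CPM. The paper's RT-qPCR, on RNA left from making the libraries, gave this unigene a far smaller fold change, which was not significant. DN100108_c0_g1, which it places close to *CUC2*, an organ boundary gene of Arabidopsis, has the first part of its identifier in common with DN100108_c1_g2 but not the component. Its prostrate and erect levels were 10.1 ± 4.47 and 100.9 ± 5.77 CPM, above the 5% limit. Both were named after their values were seen.

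**Figure D5:**
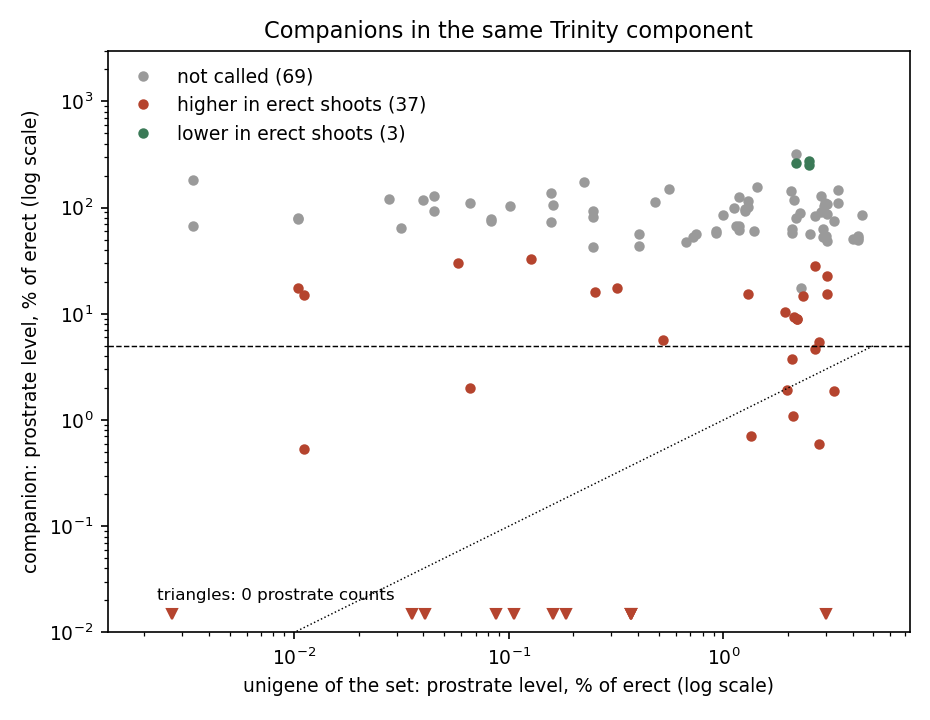
Prostrate level as a percentage of the erect level for the 109 tested companions (vertical, log scale) against the lowest such percentage among the unigenes of the set in the same component (horizontal, log scale), coloured by the edgeR call, with triangles for 0 prostrate counts, a dashed line at 5% and a dotted line of equal percentages. The 69 companions in grey lie mostly above 50% at any value of their partner, the 37 in red lie mostly below them, some under the 5% line, and the 3 in green lie above 200%.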

How the data were processed

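RNA-seq was analysed for 6 libraries of *S. nipponica*, 3 per type of shoot. Per the paper's methods, reads were assembled with Trinity and the longest transcript stood for each gene. The authors deposited an estimated count per unigene and library, neither normalized nor pooled over replicates. Trimmomatic 0.36 and HISAT2 2.1.0 are named in the submitters' processing notes, and the program used for counting was not given in the sources used here. Counts were rounded to whole numbers, and CPM used plain library totals. Differences were fitted on the whole table with edgeR 4.0.16 in R 4.3.3 (quasi-likelihood test, TMM scaling, filterByExpr with min.count 10 and min.total.count 15, and no other term than the type of shoot). A call needed a Benjamini-Hochberg adjusted p under 0.05 and a log2 fold change beyond 1 in either direction. Standard errors were derived from the F statistic. The test was first run on simulated data. Replicates differed by more than sampling noise (chi-square of 28.0 to 112 per degree of freedom). Totals were between 15679145 and 20243961 counts, and intervals and floors cover counting error only.

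Unigenes were named by rule: the 10 highest in the erect shoots, the 5 smallest percentages, 5 on each side of the threshold, the 3 smallest and 3 largest coefficients of variation, 3 components with the most unigenes of the set, and the 3 companions highest in each type of shoot; exceptions are stated. The set, the lists and the tests were chosen with earlier results of these data known. DESeq2 1.42.0, limma-voom (limma 3.58.1), other scaling, filters, thresholds and left-out libraries were alternatives. Sequences, annotations and transcript lengths were not used here.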

Additional observations from a re-analysis of the deposited data

How the results depend on the processing

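The number of unigenes in the set was 135 with TMM-scaled totals or DESeq2 size factors, 136 with unrounded counts, 187 with a threshold of 10% and 90 with 2%, and between 129 and 145 with each library left out. Their share of the erect counts was between 4.82 and 5.37% with an erect library left out, and the median prostrate percentage between 0.940 and 1.16% with any library left out. The median coefficient of variation was 0.321 with TMM scaling. As an SD of log2(CPM + 1) it was 0.467, against 0.149 in the other abundant unigenes. With an erect library left out, chosen as an alternative after seeing the data, it was between 0.170 and 0.355, the lowest without erect replicate 3, where the others had 0.0774. Erect replicate 3 was the lowest for 73 unigenes with TMM scaling.

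The main test did not pair the samples by replicate number. The deviations of same-numbered libraries had correlations between -0.321 and 0.0472, and those of unlike-numbered libraries between -0.151 and 0.245. With 3 libraries per group these values cannot decide whether samples were paired. With the replicate number as a block, 31 of 109 companions were called higher and 2 lower in the erect shoots, against 4.95 and 3.01% of all tested unigenes. Companions called higher were between 30 and 39 with each library left out (5.04 to 6.52% of all unigenes tested there), 43 of 134 with DESeq2 (4.96% of all), 43 of 158 without a filter (1.29% of all), 35 of 109 with limma-voom (7.96% of all), and 47 of 146 when a companion was any unigene with the same read cluster (7.94% of all). With counts in the prostrate libraries there were 26 of 98 (7.35% of all), and with all prostrate libraries at 0.562 CPM or more 14 of 78, both chosen after seeing the data. They were 11 of 22 when only companions with whole values were used, a smaller number because fewer were tested. No share over all tested unigenes with whole values was computed for comparison. Companions called lower were 5 of 134 with DESeq2 (5.14% of all) and 6 of 158 without a filter (1.68% of all). Among those with whole values they were 0 of 22. With each library left out they were between 0 and 3 of 109 to 119 (2.54 to 5.26% of all unigenes tested there), with 1 without prostrate replicate 1. The causes were not tested. Levels under 1 CPM in the prostrate shoots rest on few counts, so the order of the lowest percentages was only partly resolved at this depth.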
